A study of Canis lupus familiaris with 8 samples.

Results

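Genes of glutathione, thioredoxin and NRF2-driven antioxidant defence were examined in the hearts of dogs with hyperhomocysteinemia (HHcy), in which too much homocysteine, an amino acid made from methionine, circulates in the blood. Of 47 listed genes, 32 had at least 1 probe set that the array's annotation pairs with a single symbol, and each was read at its brightest such probe set. All 32 were bright enough to be tested. The other 15 were not analysed here: NFE2L2, SLC7A11, GCLC, GPX4, GPX7, SRXN1, SESN2, HMOX1, FTL, MT3, GSTA1, GSTM3, GSTP1, GSTT1 and MGST3. The 32 genes stand among 5013 genes on the array whose brightest probe set was tested.

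The samples were cardiac tissue from 8 male dogs of 23 to 27 kg, 1 Affymetrix canine array per dog. In the HHcy group, 4 dogs drank water with added methionine for 2 weeks, and 4 dogs without it formed the control group. The arrays are called control 1 to 4 and HHcy 5 to 8 here, after the numbers in their titles. No genetic change, breed, age or heart chamber is named in the labels. A methionine load is a dietary model of HHcy, so the dogs were given more of homocysteine's parent amino acid as well.

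Glutathione is a small thiol that cells build from glutamate, cysteine and glycine. Homocysteine can itself be turned into cysteine through transsulfuration, which links methionine intake to this pathway. Glutathione peroxidases and peroxiredoxins remove peroxides, and the reducing power comes from NADPH through glutathione reductase or thioredoxin reductase. NRF2, encoded by NFE2L2, is the transcription factor that raises many of these enzymes when oxidants or electrophiles modify its inhibitor KEAP1. The heart depends on this system because its mitochondria release superoxide and hydrogen peroxide continuously.

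No gene of the 32 passed limma's test across all 14301 probe sets after Benjamini-Hochberg adjustment. The lowest adjusted p was 0.17, for MT2A. Over all probe sets, 0.0979% passed as higher and 0% as lower at that threshold. At an unadjusted p under 0.05, 4 genes were higher in HHcy (MT2A, PGD, PRDX4 and MGST1) and 2 were lower (PRDX2 and TXNRD2). That is 12.5% of the 32 higher and 6.25% lower, against 11.9% and 5.94% of all probe sets, so the shares lay near the background. For the brightest probe set of every gene the background was 11.7% higher and 4.77% lower. The count of lower genes changed when single arrays were left out. It was 0 without control 2, without control 4 and without HHcy 6. It was 1 without control 1, control 3, HHcy 5 or HHcy 7 in turn. The lower count over all 14301 probe sets changed too, from 849 with all arrays. That count was 481, 634 and 896 without control 2, control 4 and HHcy 6. Without control 1, control 3, HHcy 5 and HHcy 7 it was 665, 851, 674 and 789.

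The log2 fold changes of the 32 genes, taken on log2(signal + 24), ran from -1.13 for PRDX2 to 2.38 for MGST1, with 16 above and 16 below 0, where 8578 of the 14301 probe sets lay above and 5723 below. Their median was -0.001, against 0.15 over all probe sets tested and 0.14 over the brightest probe set of every gene. A total of 20 genes lay within 0.5 of 0 and 4 lay more than 1 away from it. The 95% confidence intervals had a median width of 0.78 to each side, and 11 of the 32 lay wholly between -1 and 1. For the remaining genes the interval reached past a difference of that size in at least 1 direction.

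**Figure D1:**
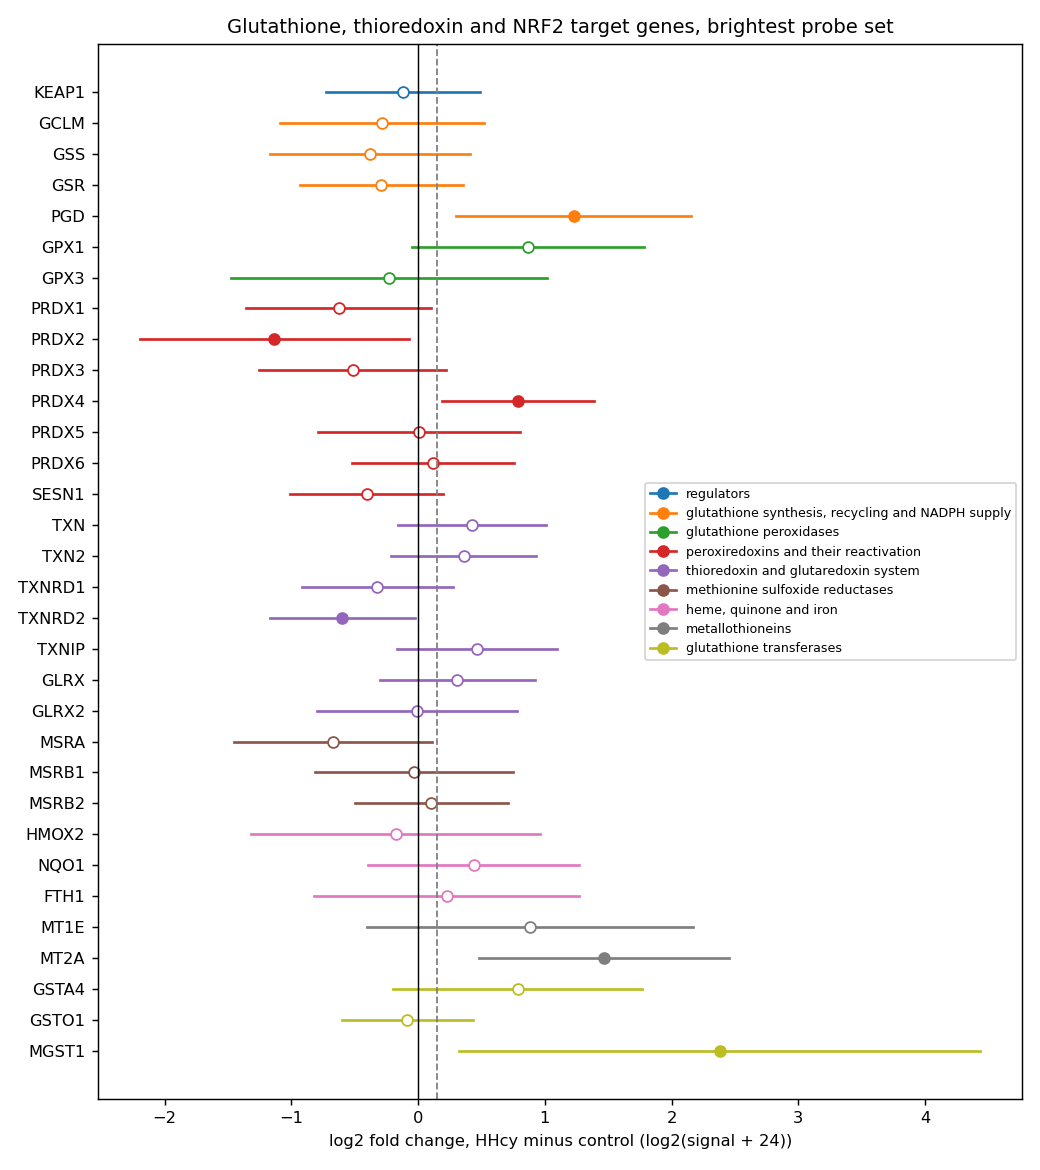
Log2 fold change (HHcy minus control, x axis) of each of the 32 genes at its brightest probe set, with 95% confidence intervals as bars, coloured by role. Filled points had an unadjusted limma p under 0.05, the solid line marks 0 and the dashed line the median of all probe sets tested, 0.15. MGST1 and MT2A lie farthest to the right, PRDX2 farthest to the left, and most intervals cross 0.

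HHcy 6 stood apart from the other arrays, and control 2 stood apart within the controls. On HHcy 6 the 12 measured of 16 cardiomyocyte markers had a summed signal of 20298, against 242825 to 381758 in controls and 265174 to 301052 on the other HHcy arrays. Smooth muscle markers (4 measured of 6) summed to 63167 on HHcy 6 and to 3284 to 11597 on all other arrays. The 12 measured of 13 macrophage markers summed to 7536 to 10909 in controls and to 14304 to 27793 in HHcy, and the 4 measured of 10 fibroblast markers to 11756 to 17606 and 17582 to 42758. No marker had a signal of 0, and none of the 9 erythroid markers was measured. The mean log2 ratio of 3' to 5' signal of actin and GAPDH, a sign of RNA quality, reached 6.31 for HHcy 6 and 4.02 for HHcy 5. Control 2 had -0.43, and the remaining arrays lay between 1.09 and 1.89. In bulk tissue, fewer cells of a type and less RNA per cell cannot be told apart. The part of cell makeup or RNA quality in the values below was not tested. Values without those arrays, given for some genes, only show how far a difference rests on them.

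These arrays also held most of the extreme values among the 32 genes. HHcy 6 was the highest or lowest of the 8 arrays for 23 of them (71.9%, against 53.3% of all probe sets), and control 2 for 17 (53.1%, against 39.2%). A total of 13 genes (40.6%, against 39.4% of all probe sets) lay more than 1 log2 unit from the control mean on HHcy 6, and 2 to 4 on the other HHcy arrays. Without HHcy 6, 5 genes had an unadjusted p under 0.05, all higher: MT2A, PGD, PRDX4, MGST1 and TXN. That was 15.6%, against 8.50% of all probe sets higher and 6.27% lower in the same setting. None passed after adjustment (lowest limma adjusted p 0.21). The median of the 32 then became 0.26, against 0.10 over all probe sets, so that it moved from below to above the general median. The sign turned for 6 genes: KEAP1, GPX3, GLRX2, MSRB1, HMOX2 and GSTO1. Without both HHcy 5 and HHcy 6, MT2A and PRDX4 were higher and TXNRD2 was lower at an unadjusted p under 0.05, where 4.07% of all probe sets were higher and 4.20% lower. Without control 2 and HHcy 6, a setting chosen after the data were seen, 5 genes were higher (MT2A, PGD, PRDX4, MGST1 and TXNIP) and GSS was lower, where 8.71% of all probe sets were higher and 5.17% lower. The median of the 32 was 0.02 against 0.09 over all probe sets in that setting. The position of the median relative to all probe sets therefore depended on which of these arrays entered.

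**Figure D2:**
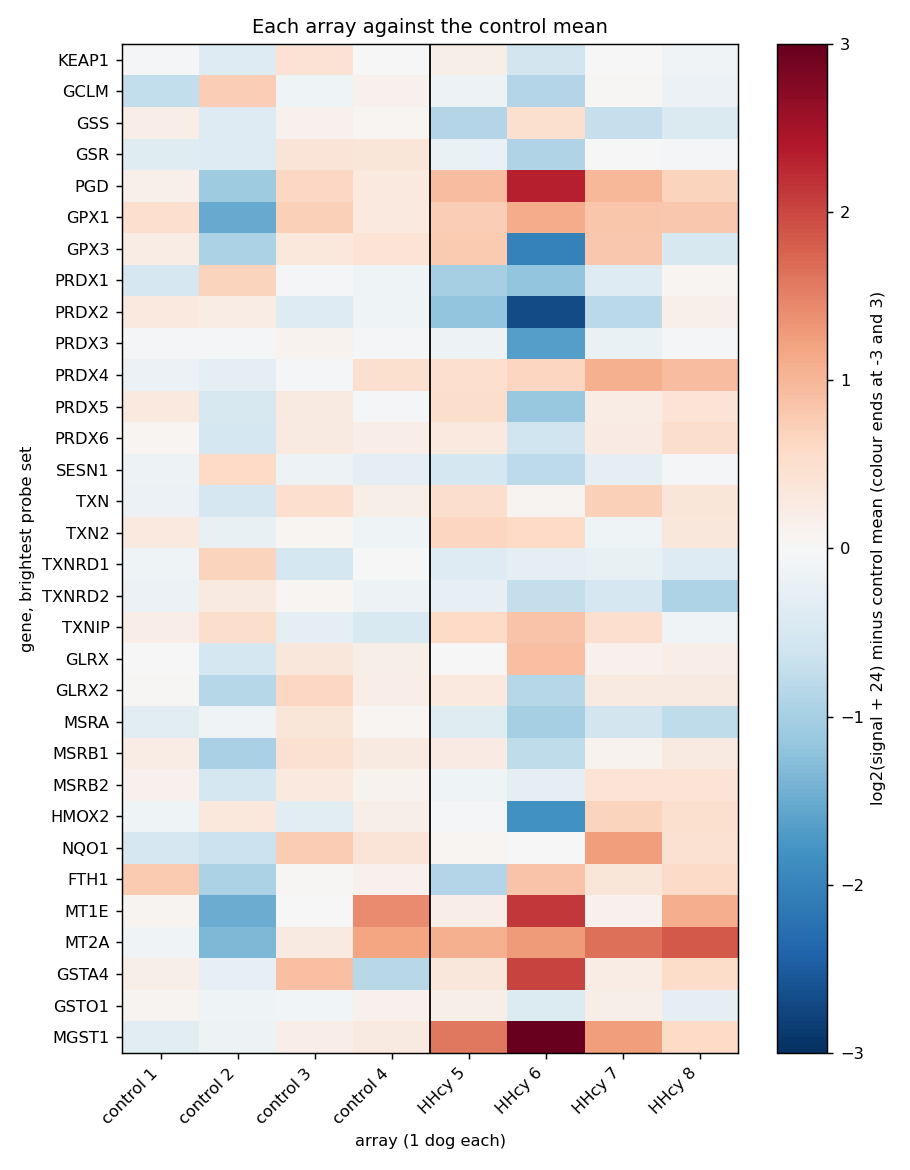
Each of the 32 genes (rows) on each array (columns) as log2(signal + 24) minus the control mean, red above and blue below. The column of HHcy 6 holds the deepest colours, such as MGST1, PGD and GSTA4 above and PRDX2, GPX3, HMOX2 and PRDX3 below, and control 2 is blue for GPX1, MT1E, MT2A and PGD.

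Metallothioneins, small cysteine-rich proteins that bind zinc and copper and scavenge oxidants, had positive log2 fold changes for both measured genes of 3 listed. MT2A had signals of 406, 158, 530.2 and 1028 on controls 1 to 4. On HHcy 5 to 8 its signals were 949, 1102, 1428 and 1636. Control 4 lay above HHcy 5, and otherwise every HHcy array was above every control. Control and HHcy means were 530.5 ± 366 and 1279 ± 311 (SD, n = 4 each). Its log2 fold change was 1.46 ± 0.45 (SE), a 2.76-fold difference, with an unadjusted limma p of 0.00722 and an adjusted p of 0.17. MT2A alone of the 32 had an unadjusted p under 0.05 in all 20 alternative settings, with log2 fold changes from 0.78 to 1.86 and adjusted p from 0.136 to 0.906. Without HHcy 6 it was 1.52, and without control 2, whose signal was the lowest, it was 1.02. A dimmer MT2A probe set had 45.4, 80.9, 175 and 67.8 in controls and 291, 333, 116 and 142 in HHcy. On that probe set control 3 exceeded both HHcy 7 and HHcy 8, and the log2 fold change was 1.07 (limma adjusted p 0.240).

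MT1E, another metallothionein, had signals of 238, 64.7, 228 and 637 on controls 1 to 4 and of 262, 1065, 249 and 504 on HHcy 5 to 8. The groups overlapped widely, with control 4 above all HHcy arrays but HHcy 6. On the log2 scale the difference was 0.88 ± 0.59 (SE, limma adjusted p 0.435) and became 0.47 without HHcy 6. Metallothionein copies are near-identical, and both brightest probe sets carry the suffix that Affymetrix gives to sets matching several transcripts, so the genes may share signal. The brightest probe sets of GPX1, PRDX5, PRDX6, GLRX2, GSTA4 and GSTO1 carry that suffix as well. The summed macrophage markers were also higher on every HHcy array than on every control, while the fibroblast sum on HHcy 8, 17582, lay within the range of the controls. The part of either cell type in the metallothionein values was not tested.

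Glutathione transferases join glutathione to electrophiles, and 3 of 8 listed were measured. MGST1, a microsomal transferase that also reduces lipid peroxides, had signals of 56.2, 66.3, 92.1 and 97.6 on controls 1 to 4. On HHcy 5 to 8 the signals were 276, 6832, 215 and 128, each above every control. HHcy 6 was far above the other 3. The fitted log2 difference was 2.38 ± 0.94 (SE), a 5.20-fold difference, with an adjusted limma p of 0.234. Without HHcy 6 it was 1.14 (2.20-fold, unadjusted limma p 0.011). It was 0.18 when the 3'/5' ratio entered the model. HHcy 6 also had the highest smooth muscle, fibroblast, macrophage, endothelial, lymphocyte and adipocyte sums. The sums and the median markers did not always go together. For endothelial markers (4 measured of 10) HHcy 6 had the lowest median log2 difference from the control mean, -0.488. For lymphocyte markers (3 measured of 10) its median was 0.523, below 0.605 on control 1, 0.875 on HHcy 7 and 0.933 on HHcy 8. Its fibroblast sum was only just the highest (42758, against 41862 on HHcy 7). The adipocyte sum (2 measured of 6) was 1999.6 there and 343 to 779.9 on the other arrays. Its cardiomyocyte sum was the lowest, and its neutrophil sum, of 1 measured marker, was not the highest. The part of any cell type in the MGST1 values was not tested.

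GSTA4, which conjugates the lipid aldehyde hydroxynonenal, had signals of 1028, 770.0, 1719.8 and 506 in controls and 1157, 3806, 1072 and 1351 in HHcy. Only HHcy 6 lay above all controls. The log2 fold change of 0.79 ± 0.45 (SE, limma adjusted p 0.372) became 0.37 without it. GSTO1, an omega-class enzyme with thioltransferase activity, had means of 1428 ± 121 and 1366 ± 295 (SD, n = 4 each). Its log2 fold change was -0.08, with a 95% interval from -0.60 to 0.43. Dimmer tested GSTO1 probe sets had -0.26 and -0.92, the latter with an unadjusted limma p of 0.0578 and an adjusted p of 0.295.

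Among genes of glutathione synthesis, recycling and NADPH supply, 4 of 6 listed were measured, and PGD differed in sign from the others. PGD encodes 6-phosphogluconate dehydrogenase, an NADPH-producing enzyme of the pentose phosphate pathway. Its signals were 2261, 966, 3140.5 and 2480.2 on controls 1 to 4 and 3896, 10274, 4055 and 3246 on HHcy 5 to 8. Every HHcy array was above every control, with HHcy 8 just above control 3. On the log2 scale the difference was 1.23 ± 0.42 (SE), a 2.34-fold difference, with an unadjusted limma p of 0.0139 and an adjusted p of 0.194. It was 0.86 without HHcy 6, 0.88 without control 2 and 0.51 without both. When the 3'/5' ratio entered the model it was 0.34. A second PGD probe set was too dim to test.

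The 3 genes that build or recycle glutathione itself had small negative log2 fold changes. GSR, glutathione reductase, had signals of 2902, 2879.6, 4977 and 4856 in controls and 3264, 2015, 3732 and 3668 in HHcy, with controls 3 and 4 above all HHcy arrays. Its log2 fold change was -0.29 ± 0.29 (SE), and a second probe set had -0.48. GCLM, the modifier subunit of glutamate-cysteine ligase and a well-known NRF2 target, had means of 206 ± 96.4 and 157 ± 44.3 (SD, n = 4 each) and a log2 fold change of -0.29. GSS, glutathione synthetase, had 196, 122, 188 and 177 in controls and 80.1, 245, 94.8 and 118 in HHcy. On GSS the arrays HHcy 5, 7 and 8 were below every control and HHcy 6 was above all of them. Its log2 fold change was -0.38 with all arrays and -0.67 without HHcy 6 (unadjusted limma p 0.0695). A dimmer GSS probe set had 123, 153, 106 and 93.3 in controls and 118, 44.3, 157 and 59.4 in HHcy. There HHcy 6 was the lowest array and HHcy 7 lay above every control. That probe set had -0.36 with all arrays and -0.13 without HHcy 6. The adjusted limma p values of GSR, GCLM and GSS at their brightest probe sets with all arrays were 0.609, 0.691 and 0.579.

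KEAP1, the adaptor that marks NRF2 for degradation and the only measured regulator of the 2 listed, had signals of 322, 249, 455 and 328 in controls and 376, 220.3, 330.5 and 308 in HHcy. The groups overlapped, and the log2 fold change was -0.12 ± 0.28 (SE, limma adjusted p 0.841), with a 95% interval from -0.73 to 0.49.

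The 2 measured glutathione peroxidases of 4 listed, both selenium-dependent, differed in sign. GPX1, the cytosolic and mitochondrial enzyme, had signals of 14431, 3550.3, 16589 and 12559 on controls 1 to 4 and 16952, 21948, 18035 and 17795 on HHcy 5 to 8. The groups did not overlap, but HHcy 5 and control 3 nearly met. The wide gap came from control 2, and the log2 fold change of 0.87 ± 0.42 (SE, limma adjusted p 0.3) was 0.37 without that array. The other 4 GPX1 probe sets had 0.42, 0.10, -0.03 and -0.52. GPX3, the secreted plasma form, had 2476, 1085, 2636 and 2828 in controls and 3690.0, 504, 3709.7 and 1500.3 in HHcy. HHcy 5 and 7 were above all controls and HHcy 6 was below all of them. The fitted log2 difference was -0.23 ± 0.57 (SE, limma adjusted p 0.850) and turned to 0.37 without HHcy 6. A dimmer GPX3 probe set had -1.29 (unadjusted limma p 0.0235, adjusted p 0.222).

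Peroxiredoxins, which reduce hydrogen peroxide with thioredoxin, had log2 fold changes of both signs, with 7 of 9 genes of this role measured. PRDX4, the peroxiredoxin of the endoplasmic reticulum, had signals of 189, 178, 212 and 313 on controls 1 to 4 and 319.9, 357, 481 and 439 on HHcy 5 to 8. All HHcy arrays were above all controls, HHcy 5 only just above control 4. The log2 fold change was 0.79 ± 0.27 (SE), a 1.73-fold difference, with an unadjusted limma p of 0.014 and an adjusted p of 0.194. It was 0.83 without HHcy 6 and 0.999 without HHcy 5 and HHcy 6, and with quantile and median scaling it was 0.61 and 0.49, with unadjusted limma p of 0.0588 and 0.172.

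PRDX2, a cytosolic peroxiredoxin abundant in red blood cells, had signals of 2192, 2079.8, 1345 and 1618 in controls and 763, 256, 1004 and 1965 in HHcy. HHcy 5, 6 and 7 were below every control, and HHcy 8 was among them. On the log2 scale the difference was -1.13 ± 0.48 (SE), with an unadjusted limma p of 0.0379 and an adjusted p of 0.256. It was -0.62 without HHcy 6 (unadjusted p 0.0712), and -0.02 when the 3'/5' ratio entered the model. Among HHcy arrays, PRDX2 signal went up in the order 6, 5, 7 and 8, in which the 3'/5' ratio went down. PRDX1, SESN1 and MSRB2 signals had the same order, MSRB2 with a log2 fold change of 0.10. MGST1 and the brightest TXNIP probe set had the reverse order. How often such orders occur over all probe sets was not counted. The ratio was 1.29 to 6.31 on HHcy arrays and -0.43 to 1.51 on controls. Fits with it, here and for other genes, therefore cannot separate RNA quality from group. With it in the model, 5.48% of all probe sets had an unadjusted limma p under 0.05, against 17.8% without it. The part of RNA quality was not tested.

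PRDX3, the mitochondrial peroxiredoxin, had 5821, 5804, 6336 and 5799 in controls and 5355, 1870.2, 5146 and 5736 in HHcy. Every HHcy array was below every control, HHcy 8 by a small margin and HHcy 6 by far the most. The fitted log2 difference of -0.51 ± 0.34 (SE, limma adjusted p 0.430) became -0.13 without HHcy 6, the array with low cardiomyocyte markers. PRDX1, the main cytosolic form and an NRF2 target, had 2869.5, 6462, 3961 and 3706 in controls and 2037, 1779, 3109.9 and 4202 in HHcy. HHcy 5 and 6 were below all controls. The log2 fold change was -0.63 ± 0.33 (SE, limma adjusted p 0.341).

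PRDX5 and PRDX6 lay near 0. PRDX5, found in mitochondria, peroxisomes and cytosol, had 17720.2, 10354, 17487 and 13959 in controls and 21037, 6577, 17104 and 19295 in HHcy. Its log2 fold change was 0.01 ± 0.36 (SE, limma adjusted p 0.993), with HHcy 6 below and HHcy 5 and 8 above all controls. A dimmer PRDX5 probe set had -0.80. PRDX6, which uses glutathione and also has phospholipase activity, had 0.12 with a 95% interval from -0.52 to 0.75. SESN1, a stress-inducible sestrin grouped here with the peroxiredoxins, had means of 1969 ± 636 and 1459 ± 326 (SD, n = 4 each). Its log2 fold change was -0.41 ± 0.28 (SE, limma adjusted p 0.442).

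**Figure D3:**
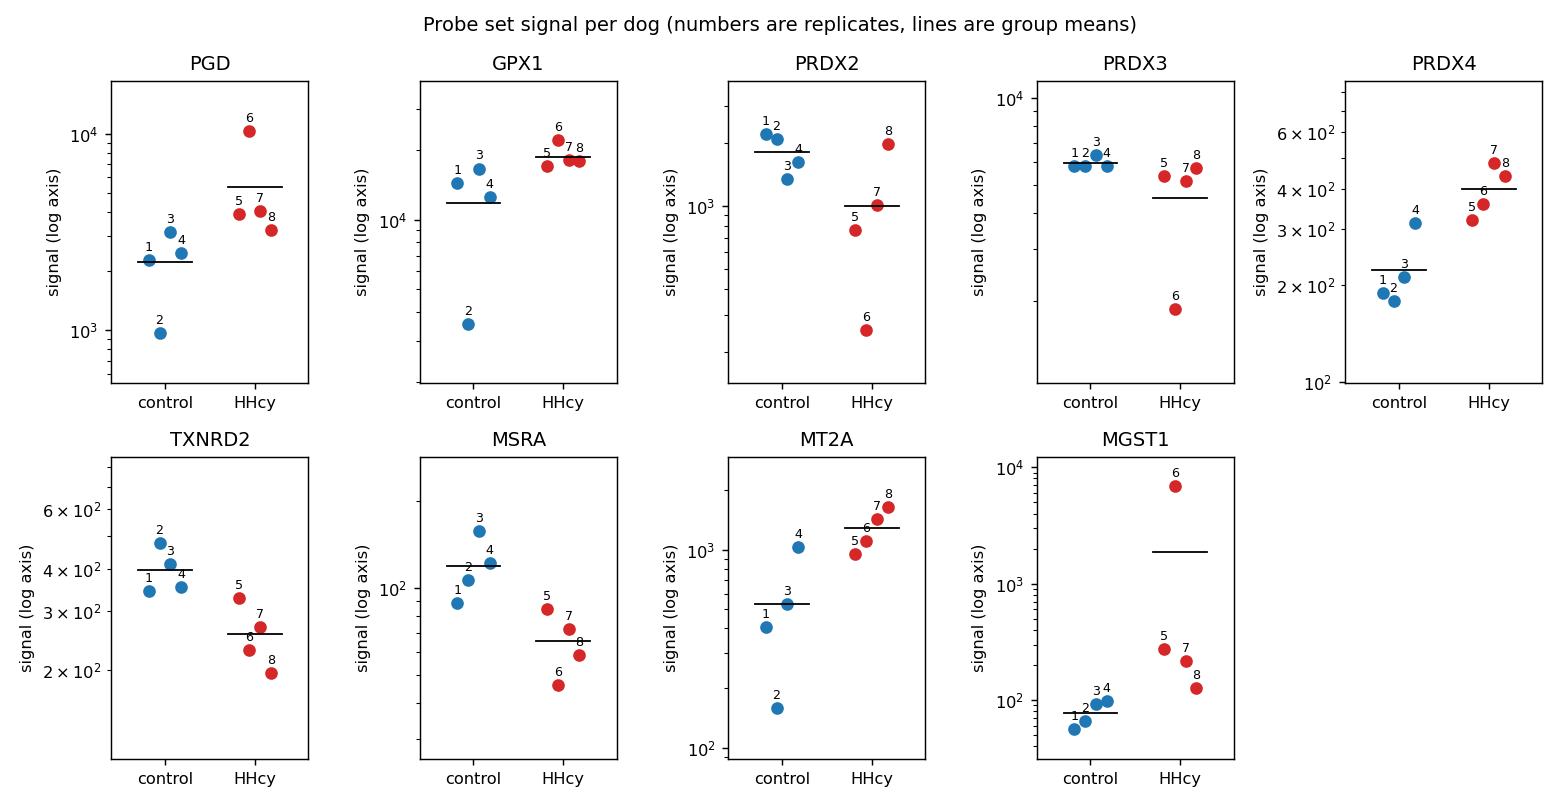
Signal of each dog (log axis) for the 9 genes that had an unadjusted limma p under 0.05 or whose groups did not overlap. Points are arrays labelled by replicate number and lines are group means. HHcy 6 is the far point for PGD, PRDX2, PRDX3 and MGST1, and control 2 for GPX1.

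The thioredoxin and glutaredoxin system was measured in full, 7 genes of 7, and none passed after adjustment. TXNRD2, the mitochondrial thioredoxin reductase, had signals of 343, 477, 412 and 352 on controls 1 to 4 and 328, 229.9, 268 and 196 on HHcy 5 to 8. Every HHcy array was below every control, HHcy 5 by a small margin. On the log2 scale the difference was -0.60 ± 0.26 (SE), with an unadjusted limma p of 0.0411 and an adjusted p of 0.264. It was -0.56 without HHcy 6 and -0.72 without HHcy 5 and HHcy 6.

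TXN, cytosolic thioredoxin, had 4975, 3937, 7965 and 6377 in controls and 8139, 5992, 9214 and 7223 in HHcy. HHcy 5 and 7 were above all controls, HHcy 6 and 8 within their range. The fitted log2 difference was 0.42 ± 0.27 (SE, limma adjusted p 0.414), and 0.53 without HHcy 6 (unadjusted limma p 0.0439). TXNRD1, the cytosolic reductase and an NRF2 target, had 1276, 2239.7, 977 and 1402 in controls and 1070.1, 1147, 1204 and 1069 in HHcy. The HHcy values lay close together and inside the range of the controls, with a log2 fold change of -0.32 ± 0.27 (SE, limma adjusted p 0.535).

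TXNIP, the inhibitor that binds reduced thioredoxin and limits glucose uptake, gave opposite values on its probe sets. The brightest had 17211, 21493, 12411 and 10914 in controls and 22807, 26914, 21121 and 13989 in HHcy, with HHcy 5 and 6 above all controls. Its log2 fold change was 0.46 ± 0.29 (SE, limma adjusted p 0.408). The other probe set had 212, 960.3, 74.1 and 218 in controls and 8.18, 7.21, 10.8 and 116 in HHcy. HHcy 5, 6 and 7 lay below every control there, while HHcy 8 exceeded control 3. That probe set had -2.53 ± 0.70 (SE), with an unadjusted limma p of 0.0038 and an adjusted p of 0.148, and 3 of its HHcy signals lie under the added 24, so the size depends on that value.

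TXN2, GLRX and GLRX2 had log2 fold changes of 0.36, 0.31 and -0.01. TXN2 is mitochondrial thioredoxin, and its dimmer probe set had -1.12 (unadjusted limma p 0.047, adjusted p 0.278). GLRX, a cytosolic glutaredoxin that removes glutathione from proteins, had means of 3418 ± 819 and 4274 ± 1348 (SD, n = 4 each). GLRX2, its mitochondrial relative, had 6802 to 6966 on HHcy 5, 7 and 8 and 3103 on HHcy 6, with controls from 3139 to 8712.

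Methionine sulfoxide reductases, which repair oxidised methionine in proteins, were all 3 measured. MSRA had signals of 88.7, 107, 158 and 122 on controls 1 to 4 and 84.5, 46.2, 72.1 and 58.8 on HHcy 5 to 8. Every HHcy array was below every control, with HHcy 5 close to control 1. The log2 fold change was -0.67 ± 0.36 (SE), with an unadjusted limma p of 0.0855 and an adjusted p of 0.341. These signals are dim, and the size depends on the added value: it was -0.81 with 6 added and -0.41 with 96. MSRB1, a selenoprotein, had 1602, 688, 1886 and 1654 in controls and 1632, 797, 1464 and 1653 in HHcy. Control 2 and HHcy 6 were both low, and the log2 fold change was -0.03 ± 0.36 (SE, limma adjusted p 0.970). MSRB2, the mitochondrial form, had 0.10 with a 95% interval from -0.50 to 0.71.

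Genes of heme, quinone and iron handling, 3 measured of 5, all overlapped between groups. NQO1, a quinone reductase and a classical NRF2 target, had 1701, 1531, 4146 and 3195 in controls and 2539.8, 2390.4, 5827 and 3336 in HHcy. Only HHcy 7 was above all controls. On the log2 scale the difference was 0.44 ± 0.38 (SE, limma adjusted p 0.546), and 0.08 on a second probe set. HMOX2, the constitutive heme oxygenase, had means of 114 ± 27.7 and 119.9 ± 78.3 (SD, n = 4 each), a log2 fold change of -0.18 with all arrays and 0.37 without HHcy 6, where its signal was 14.4. FTH1, the ferritin heavy chain that stores iron, had a log2 fold change of 0.23 with an interval from -0.82 to 1.27. Ferritin heavy chain has many processed copies in mammalian genomes, which may share signal with it.

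The groups did not overlap for 7 of the 32 genes. PGD, GPX1, PRDX4 and MGST1 were higher on all HHcy arrays, and PRDX3, TXNRD2 and MSRA were lower. This was 21.9% of the genes, against 11.4% of all probe sets (7.49% above and 3.89% below) and 11.9% of the brightest probe sets. With quantile scaling 3 of the 32 did not overlap and with median scaling 2, against 11.1% and 12.3% of all probe sets in those settings. Several of the 7 gaps were narrow, as the signals of GPX1, PRDX3, PRDX4 and MSRA above show.

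Single genes moved by different amounts without HHcy 6. MGST1 went from 2.38 to 1.14 and PGD from 1.23 to 0.86, whereas PRDX2 went from -1.13 to -0.62 and GPX3 from -0.23 to 0.37. MT2A, PRDX4 and TXNRD2 hardly moved, from 1.46 to 1.52, from 0.79 to 0.83 and from -0.60 to -0.56.

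**Figure D4:**
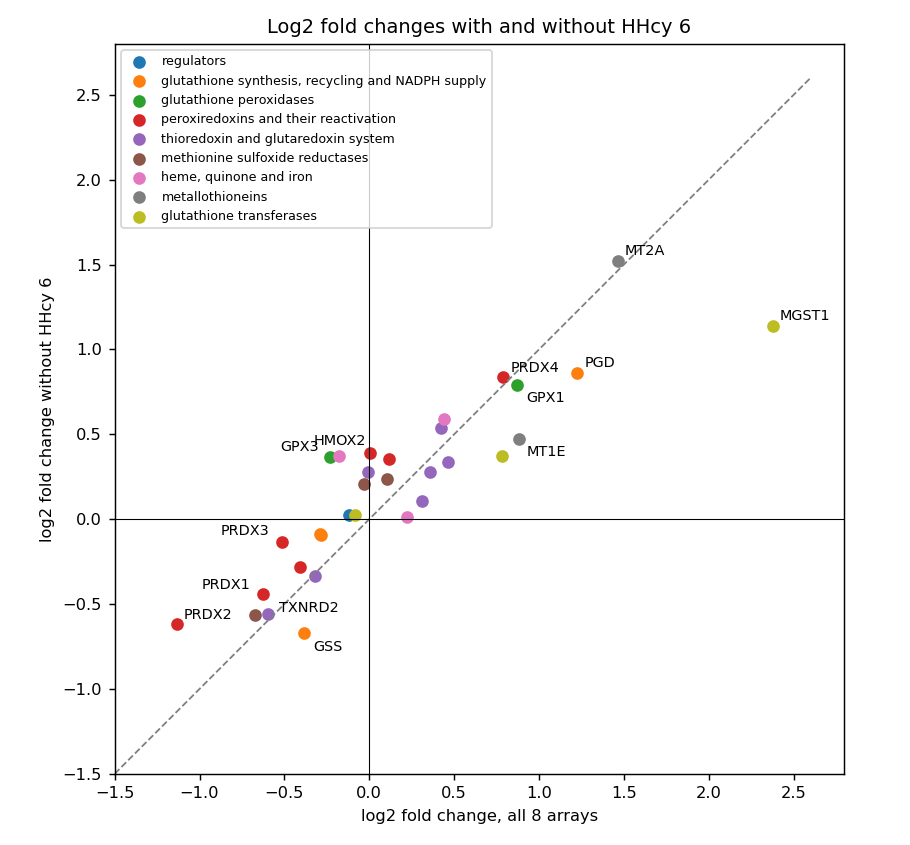
Log2 fold change of the 32 genes with all 8 arrays (x axis) and without HHcy 6 (y axis), coloured by role, with the dashed line marking equal values. MGST1 and PGD lie below the line, PRDX2, PRDX3, GPX3 and HMOX2 above it, and MT2A and PRDX4 lie on or close to it.

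Several genes had more than 1 tested probe set, and these often disagreed. Of 11 such genes, GPX1, PRDX5, PRDX6, TXN2 and TXNIP had probe sets of opposite sign, which is 45.5% against 47.6% of 1484 such genes on the array. Among the 17 additional probe sets, 16 had a lower log2 fold change than the brightest probe set of their gene, the exception being GSS. Over all genes this held for 58.1% of 2273 additional probe sets. The 17 belong to few genes and are not independent. The positions of the probes within the transcripts were not analysed here.

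**Figure D5:**
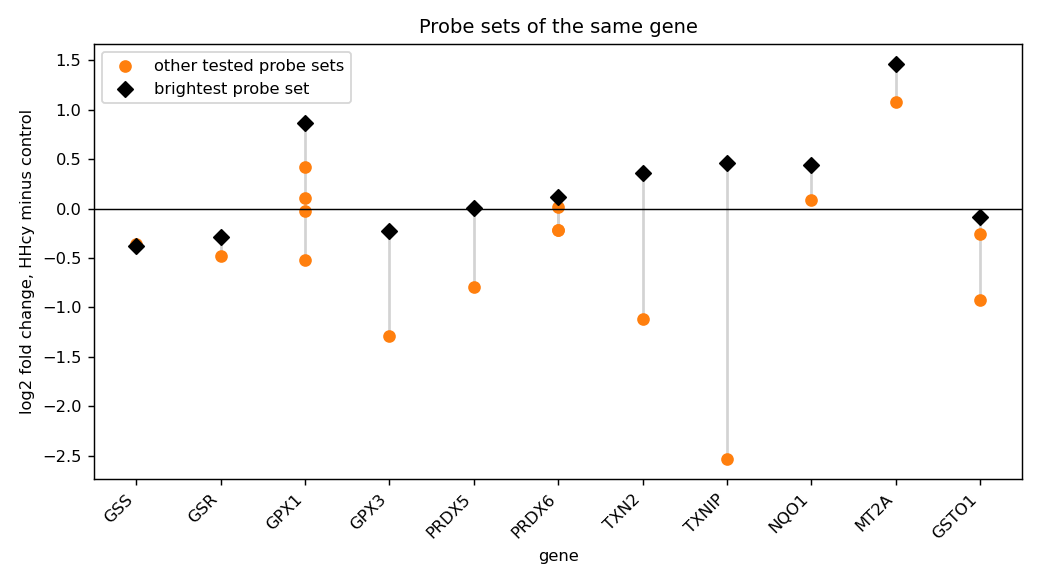
Log2 fold change (y axis) of every tested probe set of the 11 genes with more than 1, with black diamonds for the brightest and orange points for the others. The other points lie below the diamond in every gene but GSS, and the widest distance is that of TXNIP, from 0.46 to -2.53.

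Of 93 other genes of the pathway, among them further NRF2 partners, selenium-handling proteins, aldehyde and quinone reductases and NADPH sources, 41 were tested. limma called 0 of them after adjustment (lowest adjusted p 0.186), and 8 had an unadjusted p under 0.05, 5 higher and 3 lower. Over all probe sets 11.9% were higher and 5.94% lower at that p, so these counts also lay near the background. Their median log2 fold change was 0.01. The groups did not overlap for 3 higher and 2 lower of the 41, where 7.49% of all probe sets lay above and 3.89% below. Without control 1, control 3 or HHcy 6 in turn, the count of 8 was 5, 4 and 5. In those settings 16.6%, 16.2% and 14.8% of all probe sets had an unadjusted limma p under 0.05, against 17.8% with all arrays.

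SEPHS2, the selenophosphate synthetase that supplies selenoprotein synthesis, had 666, 342, 1082 and 993 in controls and 1456, 2224, 1629 and 1071 in HHcy. HHcy 8 lay just under control 3 and the other HHcy arrays above all controls, with a log2 fold change of 1.10 (limma adjusted p 0.186). BLVRA, biliverdin reductase, had a log2 fold change of 1.15 (limma adjusted p 0.193), with HHcy signals from 638 to 1609.7 above control signals from 183 to 590.2. NXN, nucleoredoxin, had 0.72, and SEPHS1, a relative of SEPHS2, had 0.69 (limma adjusted p 0.232 and 0.241). NNT, the transhydrogenase of the inner mitochondrial membrane, had 3349.9, 3341, 2794 and 3847 in controls and 2069, 477, 2431 and 1824 in HHcy. All HHcy arrays were below all controls. The log2 fold change of NNT was -1.18 (unadjusted limma p 0.0195, adjusted p 0.212). Without HHcy 6 it was -0.66 (unadjusted limma p 0.00701, adjusted p 0.21). IDH2, mitochondrial isocitrate dehydrogenase, had control signals from 2753 to 4009, with 197 on HHcy 6 and 1437 to 2485 on the other HHcy arrays. Every HHcy array was below every control for IDH2 too. Its log2 fold change was -1.56 (unadjusted limma p 0.0295, adjusted p 0.239). Without HHcy 6 it was -0.76 (unadjusted limma p 0.00747, adjusted p 0.211).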

How the data were processed

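The submitters' processing notes name MAS5 as the authors' software, with a version not given in the sources used here. Deposited values are linear probe set intensities of 23913 probe sets, and their mean with 2% left out at each end was about 500 on every array (500.08 to 500.10). Probe sets were named through the platform annotation, which can be old: 10549 had 1 symbol, 138 several and 13226 none. Of the 32 genes, 30 matched the RefSeq table (UU_Cfam_GSD assembly) by identifier and symbol; PRDX2 and PRDX4 keep the annotation's name.

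Here, 77 control probe sets and the dimmest 40% were left out, and limma 3.58.1 (R 4.3.3; lmFit, eBayes with an intensity trend) compared 4 HHcy with 4 control arrays on log2(signal + 24), 24 being the 20th percentile of all values. Tests were two-sided with Benjamini-Hochberg adjustment at 0.05. The fit was also run on simulated independent values without an outlying array or a 3'/5' difference. That check does not cover those features of these data. The number of arrays limits the precision. Dogs are separate animals per the labels, which give no batch or scan time.

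Values on every array are given for genes with an unadjusted p under 0.05, genes whose groups did not overlap, the gene of lowest p and the brightest of each role, and some others chosen after their values were seen. The genes and lists were chosen with earlier results of these data known. Alternatives changed scaling, the added value, the filter, probe set choice, variance model, array weights, arrays included and an RNA quality covariate.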

Additional observations from a re-analysis of the deposited data

Results flagged for a closer look

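On log2(signal + 24), 1 array lay far from the other 3 by Dixon's criterion in 7 of 64 groups of 4 arrays (10.9%). Control 2 was that array in 3 of these 7 groups and HHcy 6 in another 3. Chance meets the criterion in about 1 of 20 independent groups. The 64 groups share the same 8 arrays, so no conclusion is drawn from that rate. The signals below are linear, a scale on which the criterion was not applied.

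On control 2, the plasma glutathione peroxidase GPX3 had a signal of 1085, against 2476 to 2828 on the other controls. The methionine sulfoxide reductase MSRB1 had 688 there, against 1602 to 1886, and the sestrin SESN1 had 2918, against 1557 to 1705.

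On HHcy 6, the mitochondrial peroxiredoxin PRDX3 had 1870.2, against 5146 to 5736 on the other HHcy arrays. Mitochondrial glutaredoxin GLRX2 had 3103, against 6802 to 6966, and MSRB1 had 797, against 1464 to 1653. PRDX3 also stood out on control 3, at 6336 against 5799 to 5821, a small distance between tightly grouped controls.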

How the results depend on the processing

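No gene of the 32 and none of the other pathway genes passed limma's adjusted threshold under any of 20 alternatives. The design limits this, with 4 arrays a group and 2 arrays that stood apart. Of 636 log2 fold changes recomputed, 580 kept their sign. The dimmest-60% filter left 28 of the 32 genes. No paired analysis was possible because controls are numbered 1 to 4 and HHcy dogs 5 to 8. The causes of the differences below were not tested.

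The median of the 32 was -0.305 with median scaling. Minus the median of all probe sets it was -0.152 as reported, 0.129 without HHcy 5 and 6, -0.302 with the mean of probe sets, -0.033 with quantile scaling, -0.015 with the 60% filter, 0.039 with the 3'/5' covariate, and -0.270 to 0.152 with each array left out. The scaling moved the median of all probe sets from 0.15 to 0.01 (quantile) and -0.15 (median), and the higher and lower probe sets at an unadjusted p under 0.05 from 1700 and 849 to 1148 and 1156, and to 730 and 1816. Genes higher at that p, 4 as reported, were 2 with quantile scaling, median scaling, the 3'/5' covariate and without HHcy 5 and 6 (3 to 6 leaving out 1 array). Genes lower, 2 as reported, were 4 with median scaling, 5 with the mean of probe sets, 1 with no filter, without HHcy 5 and 6 or without control 2 and HHcy 6, and 0 with the covariate (0 to 2 leaving out 1 array). Leaving out 1 array, the lower count over all probe sets ran from 481 without control 2 to 948 without HHcy 8. Groups not overlapping, 7 as reported, were 3 with quantile scaling, 2 with median scaling and 11 without HHcy 5 and 6. The share of all probe sets not overlapping was 11.4% as reported, and 11.1%, 12.3% and 20.6% in those settings. Other pathway genes at an unadjusted p under 0.05, 8 as reported, were 5 with quantile scaling or the mean of probe sets and 2 with the covariate or without HHcy 5 and 6 (4 to 8 leaving out 1 array). Probe sets passing the adjusted test, 14 as reported, were 7 with quantile scaling or the mean of probe sets, 9 with the 60% filter, 76 with array weights, and 5 with the covariate or without HHcy 5 and 6 (3 to 31 leaving out 1 array, 31 without HHcy 8).

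Signs turned in 18 genes. With quantile scaling PRDX5 had -0.039, GLRX2 0.038 and FTH1 -0.075; with median scaling PRDX5 had -0.30, PRDX6 -0.19, MSRB2 -0.200 and FTH1 -0.078. With the mean of probe sets PRDX5 had -0.40, PRDX6 -0.076, TXN2 -0.38 and TXNIP -1.03. With array weights HMOX2 had 0.31 and FTH1 -0.003. Without HHcy 5 and 6, GPX3 had 0.16, GLRX2 0.27, MSRB1 0.19 and HMOX2 0.57. With the 3'/5' covariate GCLM had 0.23, GPX3 0.31, PRDX1 0.037, PRDX3 0.099, SESN1 0.026, GLRX -0.11, GLRX2 0.23, MSRB1 0.11, HMOX2 0.92 and FTH1 -0.039. Without control 2 and HHcy 6, GCLM had 0.15, GPX3 0.052, GLRX -0.066, HMOX2 0.47, FTH1 -0.30 and MT1E -0.027. With each array left out in turn, KEAP1 ranged from -0.244 to 0.026, GPX3 from -0.572 to 0.369, PRDX5 from -0.167 to 0.390, PRDX6 from -0.058 to 0.353, GLRX2 from -0.292 to 0.277, MSRB1 from -0.353 to 0.209, MSRB2 from -0.069 to 0.236, HMOX2 from -0.460 to 0.371, FTH1 from -0.092 to 0.597 and GSTO1 from -0.174 to 0.024.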

Other observations

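The measured genes were also grouped by features that were not used to choose them, after their values were seen. The 5 whose proteins are mainly mitochondrial (PRDX3, TXN2, TXNRD2, GLRX2 and MSRB2) had a median log2 fold change of -0.01 with all arrays and 0.24 without HHcy 6. On HHcy 6 their median difference from the control mean was -0.72. The 5 selenoproteins (GPX1, GPX3, TXNRD1, TXNRD2 and MSRB1) had a median of -0.23 with all arrays, 1 above 0 and 4 below, and of 0.21 without HHcy 6, 3 above and 2 below. Their median difference from the control mean was -0.95 on control 2 and -0.72 on HHcy 6. The members differed in sign there: GPX3 and MSRB1 were below the control mean on both arrays, while TXNRD1 and TXNRD2 were above it on control 2 (0.66 and 0.27) and GPX1 was above it on HHcy 6 (1.11).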
